A study of Homo sapiens with 11 samples.

Results

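Control siRNA transfection was set against vehicle in T47D-TamR, a tamoxifen-resistant derivative of the estrogen receptor-positive T47D human breast cancer line, in 2 pairs of RNA-seq libraries. The first pair was siCtrl against DMSO, both without tamoxifen, and the second was siCtrl with 0.5 µM tamoxifen against DMSO with 0.5 µM tamoxifen. These are 4 of the 11 libraries of the series, whose subject was nemo-like kinase (NLK), a serine/threonine kinase, and whose other arms used NLK siRNAs and VX-702, a p38 MAP kinase inhibitor. Genes were called alike when both pairs differed by at least 1.5-fold in the same direction, among the 11710 of 59087 genes that averaged at least 5 CPM (read counts scaled to library size) over the 4 libraries. By this rule 104 genes were higher in both transfected libraries (0.888% of the 11710) and 45 were lower in both (0.384%).

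All 4 cultures came from cells made resistant by continuous passage in tamoxifen and kept in 1e-07 M tamoxifen, so the libraries without the drug came from cells with a history of it. All were held without estrogen for 48 h first. The transfected cultures received 10 nM of a pool of non-targeting control siRNAs with the lipid Lipofectamine RNAiMAX, added as the cells were seeded, for 72 h, with or without tamoxifen. The vehicle arm was treated after the same deprivation, and the length of that treatment is not given in the sources used here. Each group was 1 library of 1 culture from a single resistant derivative. The lipid, the siRNA, the plating, the solvent and the time under treatment therefore cannot be told apart. Each p-value of the 4-library fit below measures only how far 2 pairs differed from each other.

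Double-stranded RNA can be read in the cytoplasm by the sensors RIG-I (gene DDX58) and MDA5 (IFIH1), or by toll-like receptors in endosomes. These switch on genes of type I and type III interferons, which act through JAK kinases and a complex that includes STAT2 and IRF9 on a promoter motif called the interferon-stimulated response element (ISRE). The genes under that motif encode antiviral proteins such as the IFIT, OAS and MX families, and a control siRNA is used to separate this kind of response from the loss of the targeted mRNA.

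The 4 libraries held 24884030 to 26915863 counts in genes, and mitochondrially encoded genes took 7.40% of counts in siCtrl, 7.79% in DMSO, 6.47% in siCtrl with tamoxifen and 8.42% in DMSO with tamoxifen. All 15 luminal epithelial markers were above 1 CPM in every library. Of 17 leukocyte and endothelial markers, 15 or 16 were under 1 CPM in each library, and they summed to 4.11 to 5.17 CPM; 3 could be tested and 1, ITGAM, was called higher at 1.31 against 0.963 and 2.55 against 0.667 CPM. NLK itself read 29.3 CPM in siCtrl against 32.8 in DMSO and 28.1 against 32.1 with tamoxifen (log2 difference -0.17, SE 0.13, edgeR adjusted p = 0.61). The NLK siRNA libraries held 9.81 and 11.6 CPM of it, below all 5 other T47D-TamR libraries.

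The promoters of 5 genes described below are shown because their mRNAs carry the shared pattern and their sequences hold the ISRE core. The windows run from 250 bases before to 50 bases after the annotated start, 5′ to 3′ on the gene's strand, from RefSeq on GRCh38.p14. Capitals mark matches to the ISRE core, TTTC followed by any 2 bases and TTTC, on either strand.
IFI44L (chr1:78620198-78620497, plus strand): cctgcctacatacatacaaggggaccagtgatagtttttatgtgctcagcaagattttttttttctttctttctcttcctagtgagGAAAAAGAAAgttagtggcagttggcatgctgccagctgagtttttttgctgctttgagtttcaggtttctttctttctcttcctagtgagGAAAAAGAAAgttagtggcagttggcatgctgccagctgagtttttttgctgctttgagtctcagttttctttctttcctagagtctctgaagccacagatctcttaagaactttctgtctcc
IFIT1 (chr10:89392373-89392672, plus strand): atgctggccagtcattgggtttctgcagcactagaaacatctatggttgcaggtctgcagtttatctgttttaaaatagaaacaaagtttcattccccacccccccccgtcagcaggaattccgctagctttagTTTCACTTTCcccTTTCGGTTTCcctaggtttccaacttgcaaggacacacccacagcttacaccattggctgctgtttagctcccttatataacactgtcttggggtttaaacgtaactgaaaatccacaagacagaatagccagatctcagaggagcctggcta
IFI27 (chr14:94110486-94110785, plus strand): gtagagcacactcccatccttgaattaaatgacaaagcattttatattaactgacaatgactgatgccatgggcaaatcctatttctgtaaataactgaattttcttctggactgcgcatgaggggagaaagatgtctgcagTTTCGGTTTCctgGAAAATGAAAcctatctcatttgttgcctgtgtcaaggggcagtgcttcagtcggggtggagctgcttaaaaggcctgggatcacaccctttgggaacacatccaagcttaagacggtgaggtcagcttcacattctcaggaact
ISG15 (chr1:1013247-1013546, plus strand): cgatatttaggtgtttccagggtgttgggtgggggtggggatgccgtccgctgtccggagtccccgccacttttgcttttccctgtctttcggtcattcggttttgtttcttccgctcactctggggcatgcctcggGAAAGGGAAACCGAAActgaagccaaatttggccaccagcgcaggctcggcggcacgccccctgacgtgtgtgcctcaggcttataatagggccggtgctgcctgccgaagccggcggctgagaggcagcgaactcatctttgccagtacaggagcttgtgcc
IFNL1 (chr19:39296157-39296456, plus strand): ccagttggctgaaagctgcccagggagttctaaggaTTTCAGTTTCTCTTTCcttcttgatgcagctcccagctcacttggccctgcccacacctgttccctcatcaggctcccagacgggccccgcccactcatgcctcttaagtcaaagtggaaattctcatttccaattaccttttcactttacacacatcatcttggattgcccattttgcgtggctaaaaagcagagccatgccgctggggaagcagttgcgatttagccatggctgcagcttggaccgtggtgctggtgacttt
The matches began at positions -164 and -73 from the start in IFI44L, -116 and -103 in IFIT1, -108 and -95 in IFI27, and -113 and -107 in ISG15, where the 2 matches overlap. In IFNL1, a type III interferon gene, overlapping matches began at -214 and -208.

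The ISRE core was found in 26 of the 75 promoters available for the 104 higher genes (34.667%), against 2.702% of 8994 promoters of all genes averaging at least 5 CPM and 3.651% of all 27195 promoters. It was in none of the 29 promoters available for the 45 lower genes. Leaving out the genes of the interferon list used below, 11 of 56 promoters of higher genes held it (19.643%). The shorter gamma-activated motif TTCNNNGAA, which can overlap the ISRE core, was in 9 of the 75 (12%) against 6.204%. The antioxidant response core TGACNNNGC was in 16 of the 75 (21.333%) against 15.366%. RSAD2 and HERC6 held no ISRE core in this window. These shares describe letters in the windows and not binding.

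Across 18817 genes with enough counts, edgeR's quasi-likelihood test with tamoxifen as the pairing term called 452 genes higher after transfection (2.4%) and 231 lower (1.23%), 3.63% in either direction, at an adjusted p under 0.05. All 104 and all 45 alike genes were among them, as both readings use the same libraries. In the pair without tamoxifen, 320 genes were at least 1.5-fold higher (2.73%) and 152 lower (1.3%), and with tamoxifen 181 were higher (1.55%) and 261 lower (2.23%). The log2 differences of the 2 pairs, which share no library, had a Pearson r of 0.48 and a Spearman rho of 0.34 over 11710 genes. That r was 0.42 without the interferon list, 0.30 without the alike genes and 0.61 after adjustment for transcript length and GC content. Genes are not independent replicates, and all the values in a pair share 2 libraries.

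The 4 libraries leave 1 residual degree of freedom, and the count of calls changed with the libraries in the fit. A fit of all 7 T47D-TamR libraries called 17 higher and 10 lower, and in that fit leaving out any 1 of the siCtrl, siCtrl with tamoxifen, DMSO or DMSO with tamoxifen libraries left 0 calls (291 to 362 genes at an unadjusted p under 0.05, edgeR). A fit of all 11 libraries, with the BT483 line included, called 0 higher and 2 lower (1114 at an unadjusted p under 0.05). DESeq2 on the 4 libraries called 106 higher and 59 lower. The word called below refers to the edgeR fit of 4 libraries, and the values in each library are given beside it.

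**Figure D1:**
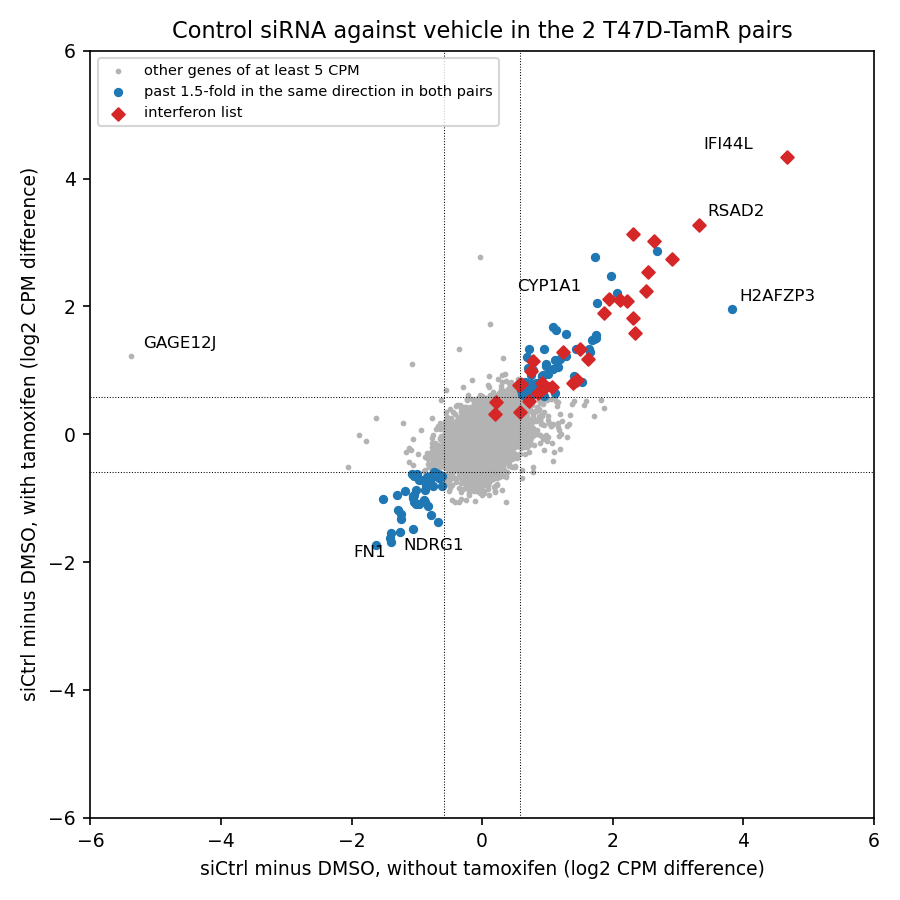
Each point is 1 of 11710 genes averaging at least 5 CPM; the x axis is the log2 CPM difference of siCtrl minus DMSO without tamoxifen and the y axis the same with tamoxifen, and dotted lines mark 1.5-fold. Interferon list genes (red diamonds) fill the upper right, with IFI44L at 4.67 and 4.34, while GAGE12J stands apart at -5.38 and 1.22.

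The antiviral genes of the interferon response formed the highest group in both pairs. Of 36 listed genes 35 were matched (OAS1 was not analysed here), and 33 of the 35 were called higher and 0 lower. All 35 had a positive log2 difference in both pairs, with medians of 1.62 without tamoxifen and 1.59 with it, against 0.01 and -0.01 over all genes tested. Their summed level was 3688 CPM in siCtrl against 1418 in DMSO, and 3389 against 1401 with tamoxifen. Both transfected sums therefore lay above both vehicle sums. Of the 30 that averaged at least 5 CPM, 25 were among the 104 alike genes. The list was chosen with this pattern known, so its counts describe it and are not independent support. Of the 35, 18 were called in limma on the deposited normalized table, 12 without the pairing term, 6 in the fit of 7 libraries and 0 in the fit of 11.

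IFI44L, a gene known for its strong response to interferon, had the largest shared difference. It read 24.4 CPM in siCtrl, 0.883 in DMSO, 13.5 in siCtrl with tamoxifen and 0.593 in DMSO with tamoxifen. The 2 transfected libraries did not overlap the 2 vehicle libraries, at 27.7-fold (95% exact binomial interval of counting error 18.1 to 44.5) and 22.8-fold (13.8 to 40.3). In edgeR the log2 difference was 4.66 (SE 0.23, adjusted p = 9.07e-36), and over the 15 alternatives the adjusted p ran from 4.52e-92 to 0.954. RSAD2, which encodes the antiviral enzyme viperin, read 35.2 and 3.45 CPM without tamoxifen and 23.0 and 2.30 with it. The ordering of the 4 libraries was the same for both genes, with siCtrl without tamoxifen the highest.

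The IFIT genes encode proteins that bind foreign 5′ ends of RNA. IFIT1 read 117 CPM in siCtrl, 18.7 in DMSO, 83.5 in siCtrl with tamoxifen and 10.2 in DMSO with tamoxifen, which are ratios of 6.24 (5.65 to 6.89) and 8.19 (7.23 to 9.32). IFIT3 read 40.7, 5.34, 22.7 and 3.34 CPM in the same order. IFIT2 read 28.7, 5.58, 18.1 and 5.97. In each of these 3 genes the lower transfected library exceeded the higher vehicle library. The edgeR log2 differences were 2.83 (SE 0.13) for IFIT1, 2.86 (SE 0.17) for IFIT3 and 1.98 (SE 0.17) for IFIT2, with adjusted p of 2.46e-36, 1.16e-29 and 7.61e-17.

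The OAS family makes 2′-5′ oligoadenylates that activate RNase L when double-stranded RNA is present. OAS2 read 168 CPM in siCtrl against 28.8 in DMSO and 161 against 27.8 with tamoxifen (log2 differences 2.54 and 2.53). OASL, a family member that works with RIG-I, read 23.9 against 4.73 and 24.1 against 2.67. An unnamed antisense transcript overlaps OAS2, and whether strand was used in counting is not given in the sources used here, so reads of the 2 may be shared. MX1, a dynamin-like GTPase that traps viral nucleocapsids, read 313 against 81.2 CPM and 318 against 72.9. The 2 transfected libraries stood at 3.85 and 4.36 times their vehicle library.

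IFI6 and IFI27 encode small interferon-induced membrane proteins. IFI6 read 387 against 82.7 CPM without tamoxifen and 358 against 84.5 with it. IFI27 read 383 against 67.3 and 351 against 73.7. ISG15, a ubiquitin-like modifier, read 41.1 against 9.43 and 35.0 against 8.12. The fold was close in both pairs, with log2 differences of 2.23 and 2.08 for IFI6, 2.51 and 2.25 for IFI27, and 2.11 and 2.10 for ISG15. They were also among the 6 interferon list genes called by edgeR in the fit of 7 libraries, at an adjusted p of 0.000216 for IFI6, 0.000139 for IFI27 and 0.00252 for ISG15. HERC6, an E3 ligase-like protein, read 28.8 against 7.82 CPM and 23.1 against 6.15, and IFI44 81.5 against 16.4 and 45.8 against 12.9.

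**Figure D2:**
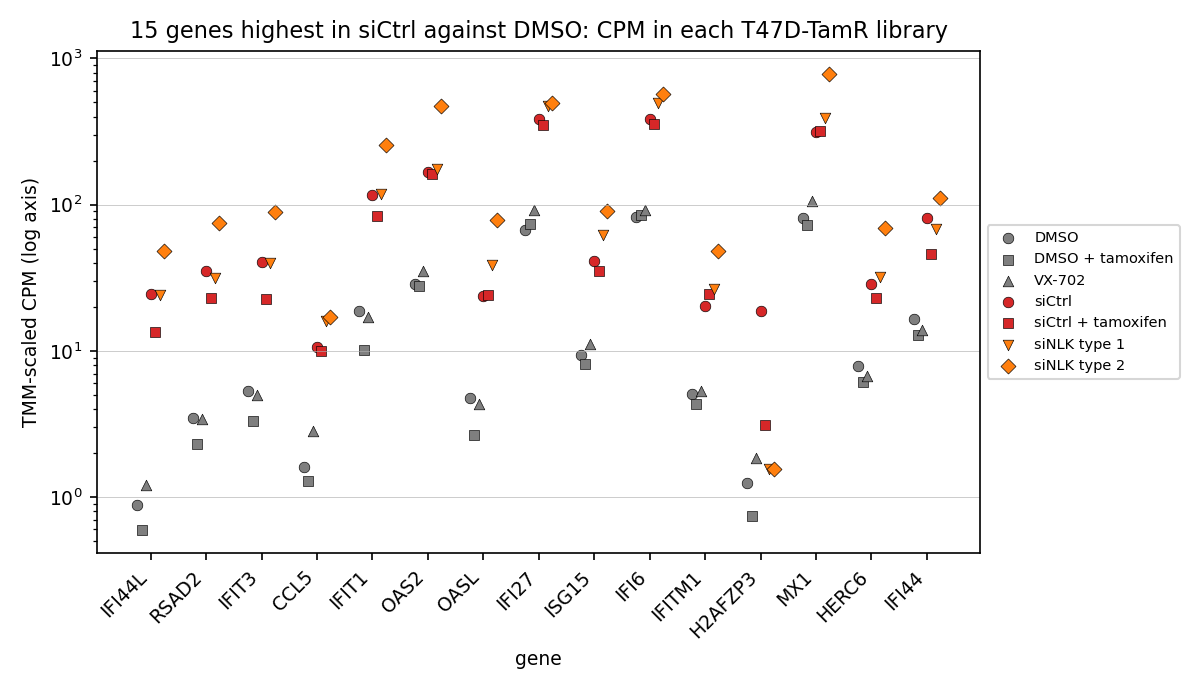
TMM-scaled CPM on a log axis of the 15 genes with the largest difference shared by both pairs, 1 point per T47D-TamR library (grey for the 3 untransfected, red for control siRNA, orange for NLK siRNA). In 14 of the 15 genes every transfected library lies above every untransfected one; in H2AFZP3 the NLK siRNA libraries lie with the untransfected ones.

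The regulators of the response had smaller differences than the antiviral genes above. STAT2 read 146 against 127 CPM and 161 against 129, and IRF9 8.03 against 6.90 and 8.34 against 5.86. These 2 members of the same complex were the 2 listed genes that were not called (edgeR adjusted p = 0.214 and 0.341). IRF7, which drives interferon genes, read 27.6 against 18.7 CPM and 32.8 against 19.3 and was called higher (log2 0.67, SE 0.14). USP18, a protease that removes ISG15 and damps receptor signalling, read 25.8 against 15 and 30.5 against 13.7.

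Among 17 listed sensors of double-stranded RNA and DNA, 11 could be tested, with medians of 0.38 and 0.35. Of these, 5 were called higher and 0 lower (3 in DESeq2), against 2.4% of all genes called higher. DDX58, which encodes RIG-I, read 49.6 against 18.8 CPM without tamoxifen and 31.2 against 17.9 with it. IFIH1, which encodes MDA5, read 39.7 against 18.9 and 22.2 against 13.3. DHX58, their relative LGP2, read 23.2 against 13.7 and 27.9 against 14.1. All 3 are in the interferon list as well. EIF2AK2, the kinase PKR, read 152 against 101 and 114 against 89.3 (log2 0.47, SE 0.11, edgeR adjusted p = 0.00478), with log2 differences of 0.58 and 0.35 in the 2 pairs.

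Counts of interferon genes were low. IFNB1, which encodes interferon beta, had 8 counts in siCtrl and 0 in DMSO, and 7 and 0 with tamoxifen. Against a floor of 3 counts per library this is at least 2.64-fold and at least 2.32-fold higher, while the 95% exact interval of counting error begins at 1.69-fold and 1.44-fold. The gene had too few counts for the edgeR test. IFNL1, a type III interferon, had 22 and 0 counts without tamoxifen (at least 7.27-fold against the floor, exact interval from 5.43-fold) and 20 and 3 with it (6.64-fold, 95% exact interval of counting error 1.97 to 34.9). IFNL2 had 11 and 0 counts and then 12 and 1. IFNL3 had 10 and 0 and then 17 and 0. The 3 IFNL genes were called higher by edgeR (adjusted p = 0.0011, 0.0142 and 0.00107) and none of them by DESeq2, and IFNL2 and IFNL3 are near-identical copies whose reads may be divided between them. In every one of the 4 genes both transfected libraries exceeded both vehicle libraries.

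The interferon alpha genes IFNA1, IFNA2 and IFNA13 had 0 counts in all 7 T47D-TamR libraries, which allows up to 3 counts in each. IFNG, the type II interferon, had 0 in the 4 libraries. IFNE, a type I interferon, had 4 counts in DMSO and 0 in the 3 other libraries of the pairs, and IFNK had 1 count in siCtrl and 0 in the others. Of 11 tested genes for interferons, receptors and their kinases, the 3 IFNL genes were the only calls: IFNAR1 read 108 against 93.7 CPM and 82.9 against 87.9, IFNLR1 14 against 13.5 and 16.4 against 14.9, JAK1 174 against 179 and 168 against 176, and TYK2 90.9 against 98.2 and 97.6 against 102. The edgeR adjusted p of these 4 ran from 0.822 to 0.884. None of the 4 passed 1.5-fold in either pair. This list of interferons, receptors and kinases was added after seeing the data, so its counts are not independent support. Over all genes 2.4% were called higher.

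**Figure D3:**
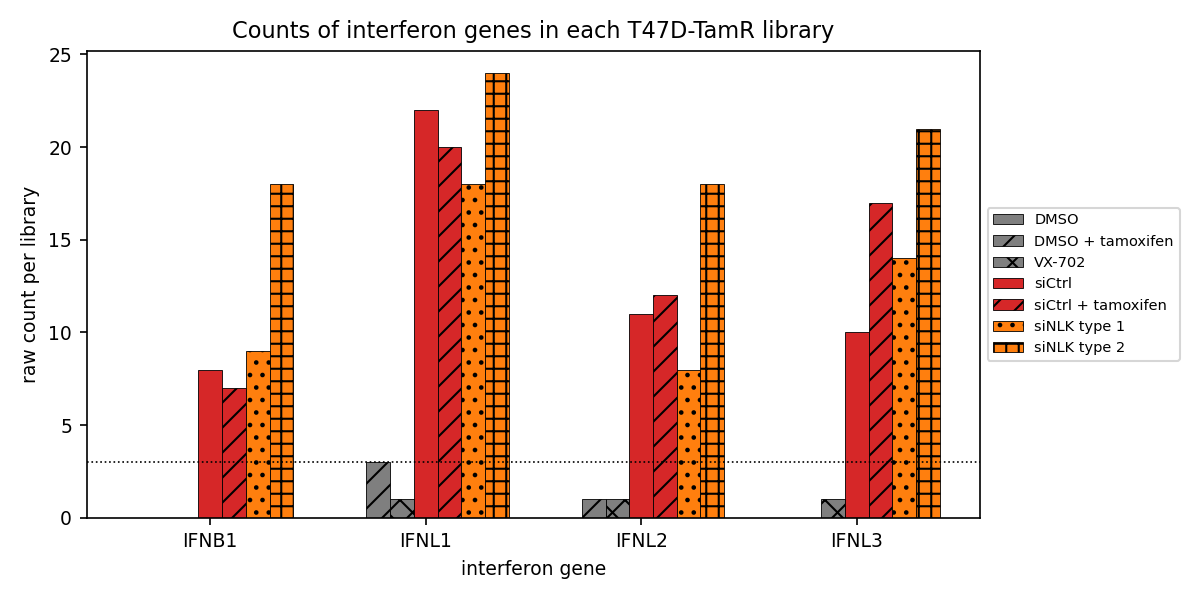
Raw counts of 4 interferon genes in each T47D-TamR library; the dotted line marks the floor of 3 counts. The transfected libraries (red and orange) hold 7 to 24 counts and the untransfected ones (grey) 0 to 3.

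Of 20 genes of antigen presentation by MHC class I, which interferons raise, 9 were called higher and 0 lower. Over all genes 2.4% were called higher. The list's medians were 0.39 and 0.42, and DESeq2 called 1 of its genes. It was added after seeing the data, so its counts are not independent support. PSMB9 and PSMB8, catalytic subunits of the immunoproteasome, read 15 against 8.59 and 14.2 against 8.78 CPM, and 33.4 against 21.5 and 33.7 against 21.5. NLRC5, the transactivator of these genes, read 4.97 against 2.37 and 5.64 against 2.82. TAP1, the peptide transporter, read 121 against 88.0 and 139 against 93.0. B2M, the light chain, read 384 against 265 and 340 against 288. The differences of TAP1 and B2M were under 1.5-fold in both pairs, so the group stood above the median of all genes by less than the antiviral genes did. The ISRE core was in 9 of its 16 promoters (56.25%).

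Several alike genes outside the interferon list, chosen here after their values were seen, are known interferon-responsive genes too. IFITM1 and IFITM3, which block entry of viruses at membranes, read 20.1 against 5.06 and 24.5 against 4.34 CPM, and 20.2 against 6.26 and 17.8 against 6.34. GBP1, a guanylate-binding GTPase, read 47.1 against 17.3 and 33.7 against 13.3. UBE2L6, the E2 enzyme for ISG15, read 53.9 against 16.4 and 55.6 against 19.8, and PLSCR1 73.3 against 30.0 and 65.6 against 22.0. Each was called higher by edgeR, with adjusted p from 7.6e-19 (UBE2L6) to 1.49e-14 (GBP1) among UBE2L6, PLSCR1 and GBP1. SAMHD1, a dNTP hydrolase that restricts retroviruses, had log2 differences of 0.71 in both pairs. The apolipoprotein L genes APOL1, APOL2 and APOL6 were also among the 104.

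Chemokine and NF-kB genes moved in part. Of 14 tested genes of the NF-kB list 4 were called higher and 0 lower, against 2.4% of all genes called higher. The list's medians were 0.28 and 0.41, and DESeq2 called 0 of the 14. CCL5, a T-cell-attracting chemokine that is not in the list, read 10.7 against 1.60 CPM and 10.0 against 1.30 (log2 2.83, SE 0.22, edgeR adjusted p = 8.64e-21). TNFAIP3, the deubiquitinase A20 that limits NF-kB, read 12.4 against 7.38 and 14 against 7.34. ICAM1, an adhesion receptor, read 12.2 against 7.06 and 11 against 6.52. CXCL10 had 21 and 3 counts and then 13 and 1, and RELB read 18.4 against 13.6 and 23.6 against 14.5 CPM. TNF read 1.75 against 1.16 and 2.43 against 0.926 CPM and was not called (edgeR adjusted p = 0.0726). All 6 of these genes had both transfected values above both vehicle values.

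A second group of higher genes belonged to the response to oxidants and xenobiotics. NRF2 is the transcription factor that raises detoxifying enzymes under oxidant stress. Of 20 tested genes of its list 9 were called higher and 0 lower (6 in DESeq2), against 2.4% of all genes called higher. The list's medians were 0.34 and 0.36. HMOX1, heme oxygenase, read 12.8 CPM in siCtrl, 5.86 in DMSO, 15.2 in siCtrl with tamoxifen and 6.74 in DMSO with tamoxifen, at 2.19-fold (1.79 to 2.68) and 2.25-fold (1.88 to 2.69). NQO1, a quinone reductase, read 429 against 255 and 435 against 251. SRXN1, sulfiredoxin, read 17.9 against 10.4 and 18.9 against 9.41. ABCC2, an export pump, read 83.2 against 44.0 and 87.1 against 49.7, OSGIN1 31.2 against 20.5 and 31.2 against 19.9, and GCLM, a subunit of the first enzyme of glutathione synthesis, 39.2 against 23.2 and 29.4 against 19.7. For each of the 6 the transfected libraries stood above the vehicle libraries without overlap. The edgeR adjusted p was 1.43e-07 for HMOX1, 5.78e-08 for NQO1 and 2.15e-08 for ABCC2. The antioxidant core was in 4 of the list's 19 promoters (21.053%), against 15.366% of promoters of genes averaging at least 5 CPM and 13.576% of all promoters.

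The aryl hydrocarbon receptor is a ligand-activated factor whose best-known target is CYP1A1, a monooxygenase. CYP1A1 read 38.7 CPM in siCtrl, 11.4 in DMSO, 45.9 in siCtrl with tamoxifen and 11 in DMSO with tamoxifen. The ratios were 3.39 (2.97 to 3.89) and 4.16 (3.66 to 4.74), and the edgeR log2 difference was 1.91 (SE 0.14, adjusted p = 1.09e-21). CYP1B1 read 377 against 232 and 305 against 210 CPM, and CYP1A2 1.83 against 0.602 and 2.18 against 1.15. Of 8 tested genes of this list 4 were called higher and 0 lower (3 in DESeq2), against 2.4% of all genes called higher, NQO1 being shared with the NRF2 list. The list was added after seeing the data, so its counts are not independent support. The remaining tested genes were not called. Their log2 differences were 0.37 and -0.04 for AHR, the receptor itself, 0.14 and 0.08 for TIPARP, -0.24 and -0.11 for ARNT, and -0.34 and -0.09 for AHRR. CYP1A2 was 2.10 and 0.907 CPM in the NLK siRNA libraries and 1.08 with VX-702, so its transfected and untransfected libraries overlapped. CYP1A1 was 52.0 and 24.2 CPM in the NLK siRNA libraries and 9.96 with VX-702, so the 3 untransfected libraries lay within 9.96 to 11.4.

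Other higher genes fell outside these programs. List counts here are to be read against 2.4% of all genes called higher. GPNMB, a lysosomal and membrane glycoprotein, read 44.9 against 13.4 CPM and 60.0 against 20.3 (log2 1.65, SE 0.13, edgeR adjusted p = 1.98e-19). SQSTM1, an autophagy receptor, read 225 against 160 and 275 against 175, and these were the 2 called of 29 lysosome and autophagy genes. Of 20 YAP and TEAD targets 4 were called higher, among them ANKRD1 at 18.5 against 9.79 and 15.3 against 8.08, TGFB2 at 14.7 against 5.50 and 10.1 against 5.34, and FJX1 at 123 against 86.9 and 138 against 81.3. The medians of that list were 0.00 and 0.04, at the level of all genes. KRT17, a basal and stress keratin, read 34.6 against 16.3 and 33.9 against 10.5.

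H2AFZP3, a processed pseudogene of a histone variant, stood apart among the 15 highest genes. It read 18.6 CPM in siCtrl, 1.24 in DMSO, 3.10 in siCtrl with tamoxifen and 0.741 in DMSO with tamoxifen. The NLK siRNA libraries held 1.56 and 1.57 CPM and VX-702 1.84, so siCtrl stood above the 6 other libraries. Its place among the highest genes is set by the smaller difference, that of the pair with tamoxifen (84 against 20 counts, log2 1.96). Its reads cannot be told from those of its parent gene where the sequences match.

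The lower genes were fewer. SIGLEC6, a sialic acid-binding receptor, read 3.42 CPM in siCtrl, 10.7 in DMSO, 3.84 in siCtrl with tamoxifen and 12.9 in DMSO with tamoxifen (log2 -1.70, SE 0.19, edgeR adjusted p = 1.74e-12). NDRG1, a stress- and hypoxia-responsive gene, read 47, 124, 63.0 and 184 CPM in the same order (log2 -1.47, SE 0.12, edgeR adjusted p = 3.67e-20). In both genes each vehicle library stood above both transfected ones. NDRG1 and KRT15 were the 2 genes called lower in the fit of 11 libraries (edgeR adjusted p = 0.0271 for each).

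Among the 15 lowest genes FN1, fibronectin, read 16.8 CPM in siCtrl, 44.6 in DMSO, 17.6 in siCtrl with tamoxifen and 54.3 in DMSO with tamoxifen, at 0.377 (0.336 to 0.422) and 0.324 (0.292 to 0.36) times vehicle. TGFBI, a matrix protein named for its rise with TGF-beta, read 8.78 against 18.3 and 8.67 against 24.4. IGFBP5, which binds insulin-like growth factors, read 197 against 411 and 219 against 439. The matrix protein tenascin C (TNC, named after its values were seen) read 50.2 against 104 and 58.5 against 113 CPM, with 63.8 and 143 in the NLK siRNA libraries and 180 with VX-702, so its second NLK siRNA library lay above DMSO. For FN1, TGFBI and IGFBP5 all 4 transfected libraries lay below the 3 others, and the edgeR adjusted p was 2.92e-17, 2.98e-10 and 7.07e-13.

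Markers of mesenchyme moved beside these genes. Calls among the markers are to be read against 2.4% of all genes called higher and 1.23% lower. Of 25 such markers 7 could be tested, with 0 called higher and 2 lower (FN1 and COL5A2, a collagen chain at 223 against 294 and 198 against 289 CPM), and their sum was 490 CPM in siCtrl against 632 in DMSO and 499 against 645 with tamoxifen. Of the 25, 15, 19, 20 and 19 were under 1 CPM in siCtrl, DMSO, siCtrl with tamoxifen and DMSO with tamoxifen. Traces of fibroblast genes went the other way in the first pair: VIM had 40 counts in siCtrl and 3 in DMSO, COL1A2 55 and 9, SPARC 33 and 6, and COL3A1 31 and 5. With tamoxifen the same 4 genes had 2 to 6 counts in the transfected library and 1 to 9 in the vehicle library. They were also higher in both NLK siRNA libraries (VIM 57 and 53 counts) and at 0 or 1 with VX-702. Their part in the results was not tested, and in bulk RNA fewer cells of a type and less RNA per cell cannot be told apart.

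Some keratins and luminal markers were lower and others were not. KRT4 read 137 against 285 CPM and 149 against 291, and KRT15, a basal keratin, 3.54 against 10.2 and 3.98 against 8.08. KRT19, a luminal keratin, read 800 against 1260 and 983 against 1410, and ELF3, an epithelial transcription factor, 77.4 against 119 and 103 against 134. KRT19 and ELF3 were the 2 of 15 luminal markers called lower (edgeR adjusted p = 0.000222 and 0.00206), against 1.23% of all genes tested. Both pairs were negative for 8 of the 15 luminal markers and positive for 6, with medians of -0.11 and -0.01. KRT8 at 2118 against 2809 and 2398 against 3053 CPM was not called (edgeR adjusted p = 0.0682). The 15 luminal markers summed to 6991 against 8700 and 8055 against 9353, and the 15 basal ones to 601 against 680 and 699 against 679.

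ID1, an inhibitor of basic helix-loop-helix factors and a direct target of BMP signalling, read 36.1 CPM in siCtrl, 85.5 in DMSO, 38.7 in siCtrl with tamoxifen and 92.1 in DMSO with tamoxifen. Its log2 differences were -1.24 and -1.25 (edgeR adjusted p = 4.81e-15). SMAD6, an inhibitory SMAD of the same pathway, read 4.73 against 9.51 and 7.30 against 11.3, and ID3 57.9 against 84.2 and 67.1 against 85.9. ATOH8 had 0 counts against 18 and 1 against 11. Of 17 tested genes in this list 4 were called lower and 0 higher (1 in DESeq2), against 1.23% of all genes called lower. The list's medians of -0.15 and -0.15 lay near those of all genes. It was added after seeing the data, so its counts are not independent support. Of the Wnt genes outside the lists, WNT7B, a Wnt ligand, read 59.7 against 111 and 74.6 against 122, and TCF7L1, a Wnt-pathway transcription factor, 39.5 against 66.2 and 41.5 against 72.6, both named after their values were seen.

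**Figure D4:**
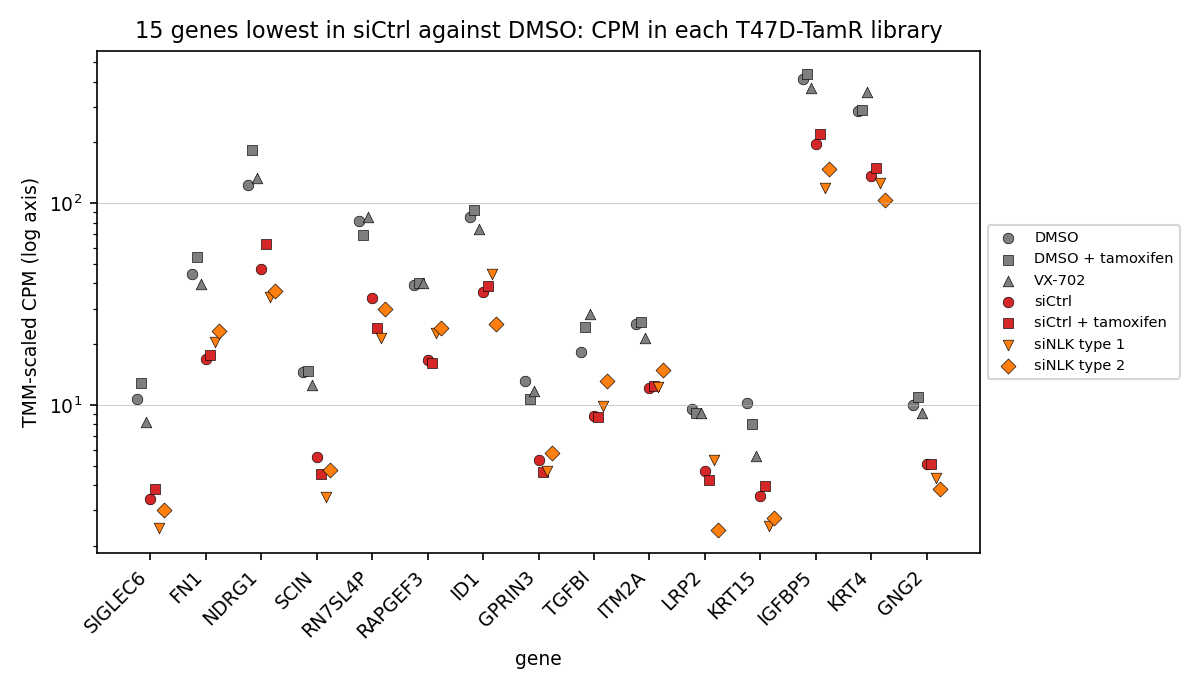
TMM-scaled CPM on a log axis of the 15 genes with the largest shared decrease, 1 point per T47D-TamR library (grey untransfected, red control siRNA, orange NLK siRNA). In FN1 the 4 transfected libraries lie at 16.8 to 23.2 CPM and the 3 untransfected ones at 39.8 to 54.3.

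Cell cycle and RNA interference genes showed no calls, against 3.63% of all 18817 genes called in either direction. At that share 0 calls in lists of this size do not set them apart from other genes. Of 38 genes of G1/S, 34 of G2/M and 15 of the RNA interference machinery 0 were called in either direction by edgeR, with list medians from -0.17 to 0.05 (1, 8 and 3 genes at an unadjusted p under 0.05, and 0 called by DESeq2). Over all genes 2654 of 18817 were at an unadjusted p under 0.05 in edgeR. Both pairs were negative for 13 of the 34 G2/M genes and positive for 3. DICER1, which cuts double-stranded RNA, read 278 against 215 CPM and 168 against 157 (edgeR adjusted p = 0.305). Endocytosis (22 genes), fatty acid synthesis (19) and metallothionein and zinc genes (7) also had 0 calls in edgeR and DESeq2, with 4, 4 and 2 genes at an unadjusted p under 0.05 in edgeR. CCND1, cyclin D1, read 79.7 against 64.6 and 90.2 against 70.1, and MYC 7.83 against 8.47 and 10.1 against 7.49, neither called (edgeR adjusted p = 0.1 and 0.75).

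Estrogen receptor genes and targets were mostly not called. ESR1, the estrogen receptor, read 24.8 against 22.2 CPM and 23.7 against 21.7, and MAPK14, the p38 alpha kinase, 164 against 174 and 181 against 170 (edgeR adjusted p = 0.723 and 0.989). Of 30 tested estrogen-responsive genes 0 were called higher and 1 lower (0 in DESeq2), CA12, at 19.6 against 36.1 and 18.6 against 23.8 CPM. Over all genes 3.63% were called in either direction, so this count does not set the list apart from other genes. PGR read 0.676 against 0.762 and 0.0369 against 0.222 CPM. The targets GREB1 and TFF1 had at most 7 counts in any of the 4 libraries and could not be tested.

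Calls in the stress lists are to be read against 2.4% of all genes called higher and 1.23% lower. The lists are small, and several of the counts below lie above those shares. Of 36 ATF4 amino acid stress genes 4 were called higher, among them SLC3A2 at 413 against 309 and 462 against 294 CPM and SLC7A5 at 1164 against 951 and 1418 against 906, which form 1 amino acid transporter. Of 27 p53 targets 5 were called higher and 1 lower, with GDF15 at 3.42 against 1.89 and 5.31 against 2.33, CDKN1A at 67.5 against 53 and 75.8 against 56.3, and BTG2, the lower one, at 22.5 against 35.9 and 28.8 against 42.3. Of 25 genes of the unfolded protein response 1 was called higher, of 26 of cholesterol synthesis 1 higher, of 16 heat shock genes 1 higher (HSPE1) and 1 lower (HSPA1A), and of 25 hypoxia and glycolysis genes 2 lower (NDRG1 and EGLN3). Of 23 ERK feedback and immediate early genes 2 were called higher, of 20 histone genes 2 higher, and of 13 tested basal markers 2 higher and 1 lower. DESeq2 called 2 of the ATF4 genes, 1 p53 target, 1 heat shock gene, 1 hypoxia gene, 2 basal markers and none of the other lists in this paragraph. Medians of these lists were between -0.13 and 0.29 in each pair.

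Among the respiratory and ribosomal lists 1 gene, RPS18, was alike in both pairs by the 1.5-fold rule. UQCR10, a respiratory chain gene outside the lists and named after its values were seen, was alike too. It read 68.7 against 35.5 and 50.7 against 33.5 CPM. Calls in these lists are to be read against 2.4% of all genes called higher and 1.23% lower. Of 13 mitochondrially encoded genes 1 was called lower (MT-ATP8, 131 against 159 and 132 against 177 CPM), with medians of -0.12 without tamoxifen and -0.40 with it. Both pairs were negative for 8 of the 13 and positive for 0. Of 36 nuclear genes of oxidative phosphorylation 3 were called higher and 0 lower, among them COX7C at 277 against 155 and 163 against 139, and DESeq2 called 0. Both pairs were positive for 21 of the 36 and negative for 4. Of 39 cytosolic ribosomal protein genes 1 was called lower, RPS18, at 367 against 600 and 377 against 573. The mitochondrial share of counts was also lower in each transfected library of the pairs than in its vehicle library, and its part in these values was not tested.

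**Figure D5:**
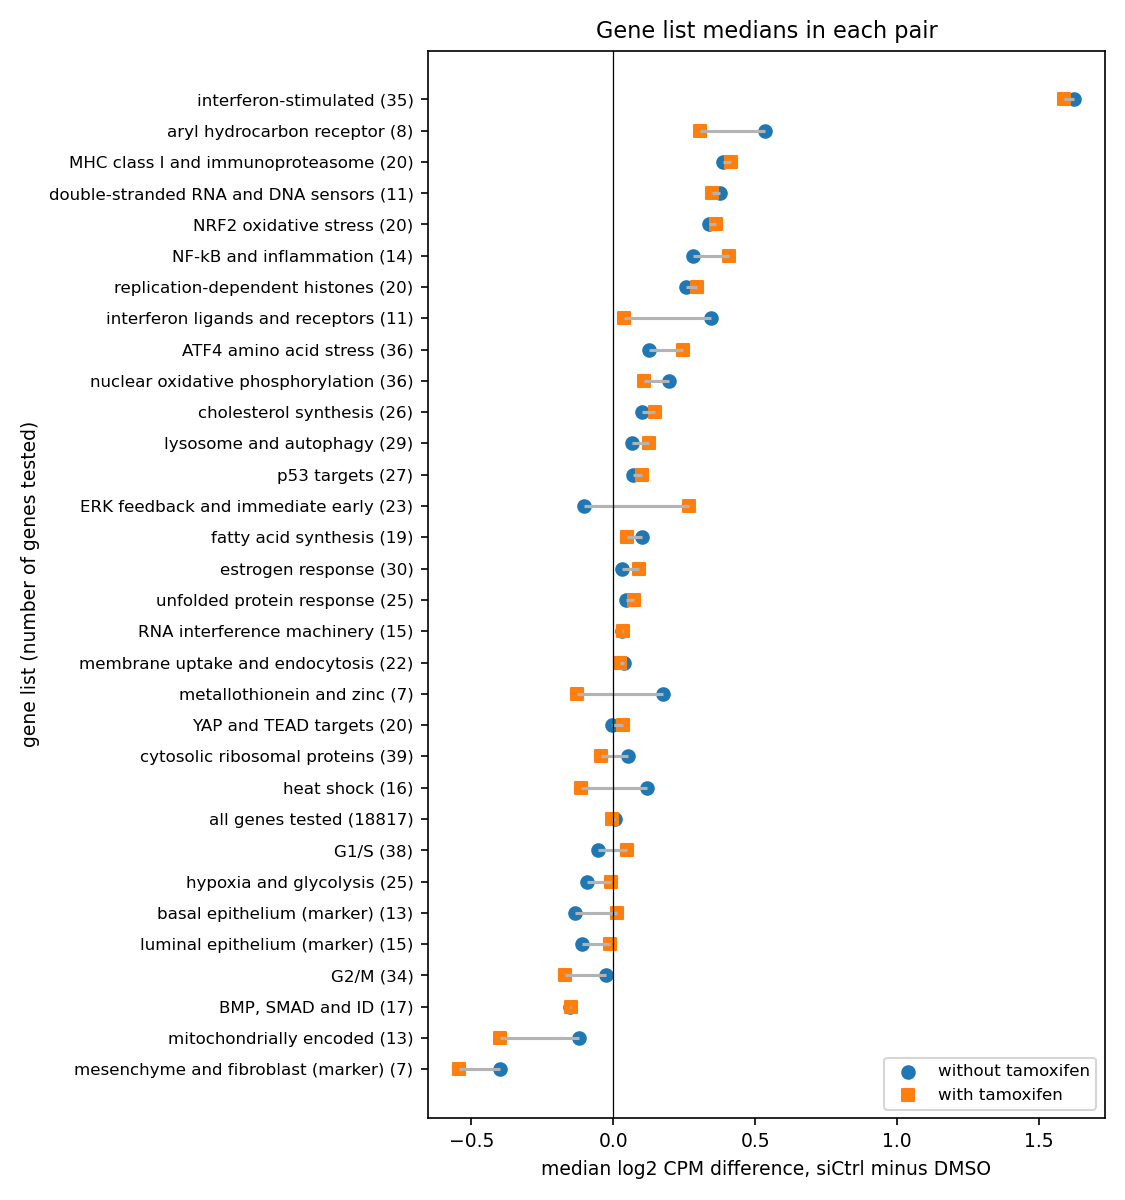
Median log2 CPM difference of siCtrl minus DMSO for each gene list with at least 5 tested genes, in the pair without tamoxifen (blue circles) and with it (orange squares); the number of genes tested is in brackets. The interferon list lies at 1.62 and 1.59, and every other list lies between -0.54 and 0.54.

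The remaining 3 T47D-TamR libraries, which share none of the 4 used to choose the genes, allowed the same comparison in other cultures: 2 NLK siRNA libraries, transfected in the same way, against the untransfected VX-702 library. Of the 104 higher genes 81 were at least 1.5-fold higher with NLK siRNA type 1 than with VX-702 (4.9% of all 11710 genes) and 84 with type 2 (4.22%). Of the 45 lower genes 39 were at least 1.5-fold lower with type 1 (4.65%) and 35 with type 2 (6.03%). These contrasts also differ in NLK knockdown and in the inhibitor, and the 2 share the VX-702 library. The median of the interferon list was 1.88 for type 1 and 2.42 for type 2, and 34 of its 35 genes were higher in each of the 4 transfected libraries than in each of the 3 others.

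The summed interferon list stood at 1401 CPM in DMSO with tamoxifen, 1418 in DMSO and 1551 with VX-702, then at 3389 in siCtrl with tamoxifen, 3688 in siCtrl, 4131 with NLK siRNA type 1 and 6552 with type 2. Within each arm the sum was slightly lower with tamoxifen than without it. Over all 7 libraries 92 of the 104 higher genes (8.45% of all genes separate in this direction) and 41 of the 45 lower ones (6.66%) had no overlap between the 4 transfected and the 3 other libraries. The 7 include the 4 libraries that chose these genes. Part of the separation therefore follows from the choice, and the shares over all genes are not a like comparison.

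The 2 pairs were compared with each other by an interaction term in the fit of 11 libraries, which leaves 3 degrees of freedom. It called 0 of 21334 genes in edgeR (228 at an unadjusted p under 0.05) and 0 in DESeq2 (96), so no difference in the transfection response with and without tamoxifen was detectable with these libraries. The spread in that fit comes from the NLK siRNA libraries of both lines, where 2 siRNAs share 1 term. It was wide for IFI44L (edgeR interaction log2 0.47, SE 4.07). The 0 calls therefore do not show that the pairs responded alike. Only 4 genes passed 1.5-fold in opposite directions (0.0342%). GAGE12J, of a cancer-testis antigen family with near-identical copies, read 1.35 CPM in siCtrl and 59.6 in DMSO, then 1.40 and 0.556 with tamoxifen, and 488 counts in the NLK siRNA type 1 library against 1485 in DMSO and 15 to 38 in the other 5. The others were C12orf57, ZNF829 and a pseudogene.

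At the 1.5-fold limit of 0.585 on the log2 scale, the smaller of the 2 differences was 0.59 for ISG20 and 0.60 for UQCR10 just inside, and 0.58 for both CD44 and MRPL12 just outside. On the lower side it was -0.60 for RPS18 inside, and -0.58 for both ETHE1 and MSI1 outside. The alike genes ranged upward from there to 37 genes at least 2-fold higher in both pairs and 13 at least 2-fold lower. Of the 104 higher genes 98 were protein-coding, and of the 45 lower genes 34 were.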

How the data were processed

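RNA-seq libraries (TruSeq Stranded mRNA, per the labels' protocols) were deposited as counts per gene for 11 libraries, with GRCh38 named in the submitters' processing notes; the sources used here name no aligner, counter or strand setting. The sources name 2 different RNA extraction methods. The authors also deposited log2(TPM + 1) values per library and a normalized log2 TPM table, which served only as alternatives. Per the labels' protocols the siRNA dose was 10 nM.

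TMM factors (0.981 to 1.02) came from the 7 T47D-TamR libraries with edgeR 4.0.16 in R 4.3.3. Counts of the 4 libraries were filtered with filterByExpr and tested with edgeR's quasi-likelihood test, with tamoxifen as the pairing term, Benjamini-Hochberg adjustment and a threshold of 0.05. Within a pair, log2 CPM differences used the TMM factors and a prior count of 2. Ratio intervals are 95% exact binomial intervals and, like the floor of 3 counts, cover counting error only. Alternatives used DESeq2 1.42.0, limma 3.58.1, other filters, scalings and samples, and length and GC content from GENCODE 29. The edgeR test of the 4 libraries and the 1.5-fold rule were first tested on simulated data, and the other statistics were not.

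Genes were named mainly from the 15 highest and 15 lowest by the smaller of the 2 differences, the leading members of 32 gene lists, and a fixed few (NLK, ESR1, PGR, GREB1, TFF1, MAPK14, MYC, CCND1). Other members of the lists were also named, without a mark. Genes from outside the lists, where chosen after their values were seen, are marked as such. The comparison, the members and the lists were chosen with earlier results of these data known, and 4 lists were added after seeing the data. These covered interferon ligands and receptors, MHC class I and the immunoproteasome, the aryl hydrocarbon receptor, and BMP, SMAD and ID genes. Symbols were matched to older names for 4 of 787 list entries, and 4 were not found. Some results on single genes are not reported here.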

Additional observations from a re-analysis of the deposited data

How the results depend on the processing

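The design holds 2 pairs of single libraries, so calls rest on 1 residual degree of freedom and on how widely the spread is estimated. The edgeR counts of 452 higher and 231 lower genes, with 33 interferon list genes higher, became 106 and 59 with 29 in DESeq2, 57 and 20 with 18 in limma on the deposited normalized table, 17 and 10 with 6 in the fit of 7 libraries, and 0 and 2 with 0 in the fit of 11. With no replicate block, that is without the tamoxifen pairing, they were 20 and 8 with 12. The pairing by tamoxifen comes from the design, and the labels number no replicates within a group. Leaving out 1 library in the fit of 7 gave 0 to 500 higher, 0 to 279 lower and 0 to 33 interferon list genes. The 0 came without siCtrl, siCtrl with tamoxifen, DMSO or DMSO with tamoxifen, where 1 pair is left and its single libraries are given the spread of the rest. The highest counts came without an NLK siRNA library (500 and 279 without type 1, 498 and 275 without type 2), and 17 and 10 with 6 came without VX-702. Size factors without TMM and the other count filters kept all 3 counts within 1.5 times.

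Of genes differing alike, 104 higher and 45 lower became 212 and 132 at 1 CPM, 57 and 19 at 20 CPM, and 37 and 13 at 2-fold. The pair without tamoxifen, at 320 higher and 152 lower, gave 707 and 529 at 1 CPM, 170 and 57 at 20 CPM, 79 and 33 at 2-fold, and 209 higher on deposited log2(TPM + 1). The pair with tamoxifen, at 181 and 261, gave 547 and 708 at 1 CPM, 83 and 107 at 20 CPM and 51 and 26 at 2-fold. Its 261 lower genes became 99 on log2(TPM + 1), 101 in the normalized table and 163 after length and GC adjustment, where alike genes were 102 and 53. Restricting to protein-coding genes, chosen after seeing the data, gave 98 and 34. The NLK siRNA against VX-702 comparison was also added after seeing the data.

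Genes near 0 changed sign: MAPK14 to -0.003231 in DESeq2 and -0.037 in limma, and NLK to 0.041 in the fit of 11. When 1 library was left out MAPK14 ran from -0.083 to 0.096, MYC from -0.11 to 0.44 and IFNAR1 from -0.086 to 0.21. Of the 112 genes followed under each alternative, these 4 were the only ones to change direction. The causes of these changes of direction were not tested beyond the libraries and genes that each alternative leaves in.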

Other observations

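Genes with low levels, under the 5 CPM used above, were called as well. HSPA6, an inducible member of the HSP70 chaperones, read 1.03 CPM in siCtrl, 0.0802 in DMSO, 2.55 in siCtrl with tamoxifen and 0.185 in DMSO with tamoxifen, and 1.41 and 2.06 in the NLK siRNA libraries against 0.4 with VX-702 (edgeR log2 difference 3.70, SE 0.54, adjusted p = 1.19e-07). HSPA1A, another HSP70 gene, was called lower, at 159 against 207 and 171 against 233 CPM. VSIR, an immune checkpoint receptor, read 1.19 against 4.69 and 1.25 against 4.85 CPM (edgeR log2 difference -1.96, SE 0.26, adjusted p = 4.53e-09), with 0.954 and 1.11 in the NLK siRNA libraries and 5.52 with VX-702. These 2 genes were called in the fit of 7 libraries too, at an edgeR adjusted p of 0.0266 for HSPA6 and 0.0283 for VSIR, and both were named after their values were seen.

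A few more of the alike genes were chosen after their values were seen. THBS1, thrombospondin 1, read 79.8 against 41.4 and 74.4 against 29.6 CPM. CX3CL1, a membrane-bound chemokine, read 37.9 against 18.9 and 36.8 against 21.6, and IL32, a cytokine, 9.50 against 5.74 and 9.48 against 3.71. In each of these 3 genes both transfected libraries exceeded both vehicle libraries (edgeR log2 differences 1.14, 0.89 and 1.03, SE 0.12, 0.14 and 0.19). The other libraries did not follow for 2 of them: untransfected VX-702 held 11.4 CPM of IL32, above both siCtrl libraries, and 29.1 of CX3CL1, above the 27.9 of NLK siRNA type 2. PIR and MAFF, both linked to the NRF2 response as background and not in the list used here, read 30.3 against 16.7 and 30.5 against 17.5 CPM, and 9.42 against 5.26 and 11.4 against 6.52.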
